A study of Ogataea parapolymorpha with 16 samples.

Results

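HPODL_00582 is the gene of the yeast Ogataea parapolymorpha that the gene table of the study names as a peroxisomal nudix pyrophosphatase with specificity for coenzyme A. It was chosen by this locus tag and is 1 of the 5408 genes with a deposited value. The gene came to attention because its transcript level in retentostat cultures was lower in the complex I mutant than in the wild type. Comparisons that use retentostat samples are therefore given as a description, without a test. RNA was sequenced from IMD010, a complex I mutant, and from CBS11895, its wild type. IMD010 is a single clone of CBS11895 in which a single-nucleotide frameshift disrupts NUBM (HPODL_04625), the gene for an essential subunit of respiratory complex I. Both strains were grown aerobically in bioreactors with glucose as sole carbon source, under 4 conditions that differ in specific growth rate. These were late-stage retentostats at 0.001 per h, chemostats under glucose limitation at 0.025 per h and at 0.1 per h, and batch cultures with glucose in excess at 0.37 per h. With 2 independent cultures per strain and condition there were 16 samples in 8 groups.

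Nudix hydrolases cleave nucleoside diphosphates that are linked to another moiety. Members of the family that act on coenzyme A split it into a phosphopantetheine compound and adenosine bisphosphate, and such an enzyme resides in peroxisomes of Saccharomyces cerevisiae and of mammals, where removal of oxidized coenzyme A and adjustment of the peroxisomal coenzyme A pool have been proposed as its function. Peroxisomes are the site of fatty acid beta-oxidation in yeasts, a pathway that consumes free coenzyme A in every round. In methylotrophic yeasts such as O. parapolymorpha, peroxisomes also house the first steps of methanol use. Glucose in excess is known to repress many peroxisomal genes in these yeasts.

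Expression was deposited as FPKM, a unit that by definition scales the reads of a gene to its length and to the size of the library. The number of reads behind each FPKM value could be worked out from the steps between the samples. The total of these reads was 16522183 to 20898682 per sample. FPKM values were scaled between samples by TMM factors, which are meant to set the typical gene to the same level in every sample. In batch cultures the median gene still had a log2 fold change of −0.21 of IMD010 against CBS11895. The 5233 genes that passed a filter on low values were tested with limma on a log2 scale. In these data 2 groups stood apart from the rest. The cultures of IMD010 at 0.1 per h differed from each other more than those of any other group, with a standard deviation over genes of the log2 difference of 0.889, against 0.135 to 0.282 in the other groups. The batch cultures of CBS11895 stood apart in short genes. Over 767 genes of up to 600 bp, the median log2 fold change of IMD010 against CBS11895 was −0.20 at 0.1 per h and 1.10 in batch cultures, and that of 0.1 per h over batch was −0.23 in IMD010 and 1.17 in CBS11895. For 1161 genes of 1000 to 1400 bp, the lengths around that of HPODL_00582, these medians were 0.10, −0.25, 0.04 and −0.11. NUBM had 4889 to 13955 reads in IMD010 and 4990 to 11078 reads in CBS11895. A frameshift need not remove the transcript, so that this does not check the strain labels.

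HPODL_00582 lies on chromosome III at 739584 to 740792 of the DL-1 assembly (Hansenula_2) and is 1209 bp long. Its transcripts were more abundant in glucose-limited cultures than in batch cultures, with 728 to 43911 reads per sample. In retentostat cultures the TMM-normalized FPKM was 2587 and 2788 in the 2 IMD010 cultures, against 10633 and 12098 in the CBS11895 cultures. At 0.025 per h it was 9538 and 10752 in IMD010, against 30443 and 26302 in CBS11895. These were the highest values of each strain. At 0.1 per h it was 7419 and 5883 in IMD010, against 17523 and 17457 in CBS11895. In batch cultures it was 470 and 660 in IMD010, against 631 and 673 in CBS11895. The strains did not overlap in any of the 3 glucose-limited conditions, where both IMD010 cultures were below both CBS11895 cultures, and overlapped in batch cultures. In both strains the level was highest at 0.025 per h, intermediate at 0.1 per h and lower again in the retentostat, while batch cultures were below all glucose-limited cultures. In RNA of whole cultures, less transcript in every cell and fewer cells with the transcript cannot be told apart.

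**Figure D1:**
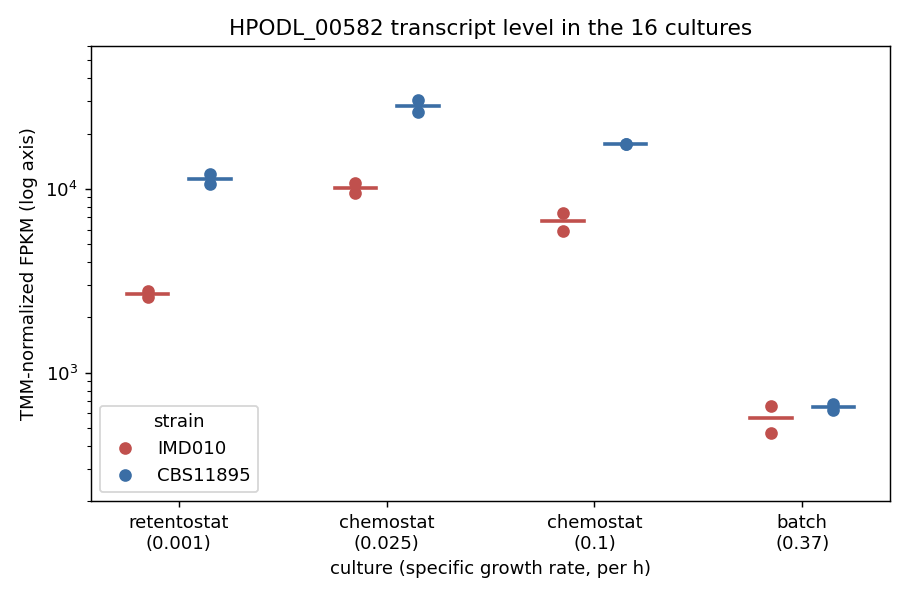
TMM-normalized FPKM of HPODL_00582 on a log axis, by culture condition in order of specific growth rate (per h), with IMD010 left of CBS11895. Points are single cultures and lines are the mean of the 2 cultures of a group. Both strains peak at 0.025 per h, with means of 10145 in IMD010 and 28373 in CBS11895, and are lowest in batch, with means of 565 in IMD010 and 652 in CBS11895.

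Ordered from low to high, the 8 groups began with the batch cultures of IMD010 (565 ± 135, mean ± SD, n = 2 as in all groups) and of CBS11895 (652 ± 30.1). They were followed by the IMD010 cultures in the retentostat (2687 ± 142), at 0.1 per h (6651 ± 1086) and at 0.025 per h (10145 ± 859). The highest were the CBS11895 cultures in the retentostat (11366 ± 1036), at 0.1 per h (17490 ± 47.0) and at 0.025 per h (28373 ± 2928). By their means, all glucose-limited groups of IMD010 were thus placed below all those of CBS11895. The 2 batch groups differed by a factor of 1.16 and their cultures overlapped, as did those of IMD010 at 0.025 per h and CBS11895 in the retentostat, which differed by a factor of 1.12. The other neighbours in this order did not overlap and differed by factors of 1.52 to 4.12, the largest of which separated the retentostat cultures of IMD010 from the batch cultures. Between the highest and the lowest group mean the factor was 18.0 in IMD010 and 43.5 in CBS11895. On the log2 scale the range over the 4 conditions was 4.18 in IMD010, where 158 of the 5233 genes had a larger one and the median gene a range of 1.13. In CBS11895 it was 5.44, with 66 genes above it and a median of 1.36.

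For a comparison with other genes, the recovered reads were divided by the annotated length of each gene, since the deposited FPKM values were not scaled by that length. On this scale of TMM-normalized reads per kilobase, set to the library size as FPKM is, HPODL_00582 reached 621 ± 52.6 in IMD010 and 1737 ± 179 in CBS11895 at 0.025 per h. At this rate its place by level among the 5325 protein-coding genes was 353 and 331 in the 2 IMD010 cultures, against 140 and 191 in the CBS11895 cultures. In batch cultures the level was 34.6 ± 8.24 in IMD010 and 39.9 ± 1.85 in CBS11895, with places of 3658 and 3023 in IMD010 and of 2999 and 2940 in CBS11895. The gene was thus among the more abundant transcripts under glucose limitation and below the middle of the order in batch cultures. In the retentostat its places were 1068 and 1030 in IMD010, against 330 and 301 in CBS11895.

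The comparison of chemostat cultures at 0.1 per h with batch cultures concerns growth at a low residual glucose concentration as well as a lower growth rate. In IMD010 the transcript level was 11.8-fold higher in chemostat cultures at 0.1 per h than in batch, a log2 fold change of 3.57 (95% confidence interval 3.18 to 3.95, FDR = 5.67e-08). In CBS11895 it was 26.8-fold higher, a log2 fold change of 4.74 (4.36 to 5.13, FDR = 8.11e-09). In both strains all chemostat cultures were above all batch cultures. At an FDR under 0.05, 51.8% of the genes tested were called in IMD010 and 74% in CBS11895, so that a call alone says little here. At the thresholds of the study (log2 fold change beyond 2 in either direction, FDR under 0.001), which HPODL_00582 passed in both strains, the shares were 4.49% in IMD010 and 13.9% in CBS11895. By size, 61 genes had a larger increase in IMD010 and 30 in CBS11895. After removal of the trend with length the log2 fold change was 3.52 in IMD010 and 4.84 in CBS11895. Dilution rate, glucose level and culture mode change together in this comparison and cannot be told apart.

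Between the 2 dilution rates, where both cultures are glucose-limited, the change was smaller. The level at 0.025 per h was 1.53-fold that at 0.1 per h in IMD010, a log2 fold change of 0.62 (0.23 to 1.00, FDR = 0.0150), while 50.4% of all genes were called. In CBS11895 it was 1.62-fold, a log2 fold change of 0.69 (0.31 to 1.08, FDR = 0.0127), while 29.8% were called. In each strain both cultures at 0.025 per h were above both cultures at 0.1 per h, but 1172 genes in IMD010 and 579 genes in CBS11895 had a larger increase. The call was lost in IMD010 without the second culture at 0.025 per h (0.53, FDR = 0.0916) and when the fit was restricted to the 4 samples compared (0.62, FDR = 0.284), and in CBS11895 without the first culture at 0.025 per h (0.59, FDR = 0.0935) or without either culture at 0.1 per h (0.70 and 0.69, FDR = 0.0727 and 0.0701).

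IMD010 was then compared with CBS11895 under each condition other than the retentostat, through which the gene came to attention. Earlier results of these data were known at that point, and the fit takes its spread from all 16 samples, including those of the retentostat. At 0.025 per h the transcript level was 2.79-fold lower in IMD010, with a log2 fold change of −1.48 (SE 0.17, 95% confidence interval −1.87 to −1.10, FDR = 0.00156). Of all genes tested, 1.49% were called at an FDR under 0.05 in either direction, and 6 genes had a larger decrease. At 0.1 per h the level was 2.65-fold lower, a log2 fold change of −1.40 (−1.79 to −1.02, FDR = 0.00243), where 3.38% of the genes were called and 31 had a larger decrease. Neither difference passed the fold change threshold of the study. When the fit was restricted to the 4 samples compared, the difference at 0.1 per h was not called (FDR = 0.577), in the condition in which the 2 IMD010 cultures differed most from each other. The log2 difference between these 2 cultures was 0.33 for HPODL_00582. Most of it arose in TMM scaling, since the deposited FPKM was 7059 and 6882 and the TMM factors were 0.95 and 1.17.

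In batch cultures the log2 fold change of IMD010 against CBS11895 was −0.23 (−0.61 to 0.16, FDR = 0.255), with overlapping cultures and 2582 genes with a larger decrease, whereas 73.5% of all genes were called. TMM scaling bears on this value, since the median gene had a log2 fold change of −0.21 with TMM factors and 0.13 without them. Relative to the median gene, HPODL_00582 differed by −0.02 with TMM factors and by −0.01 without them, and relative to the median of the genes of 1000 to 1400 bp by 0.03. The value rested on the first IMD010 culture, without which it was 0.02 (FDR = 0.934), whereas without the second IMD010 culture it was −0.47 (FDR = 0.0466).

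**Figure D2:**
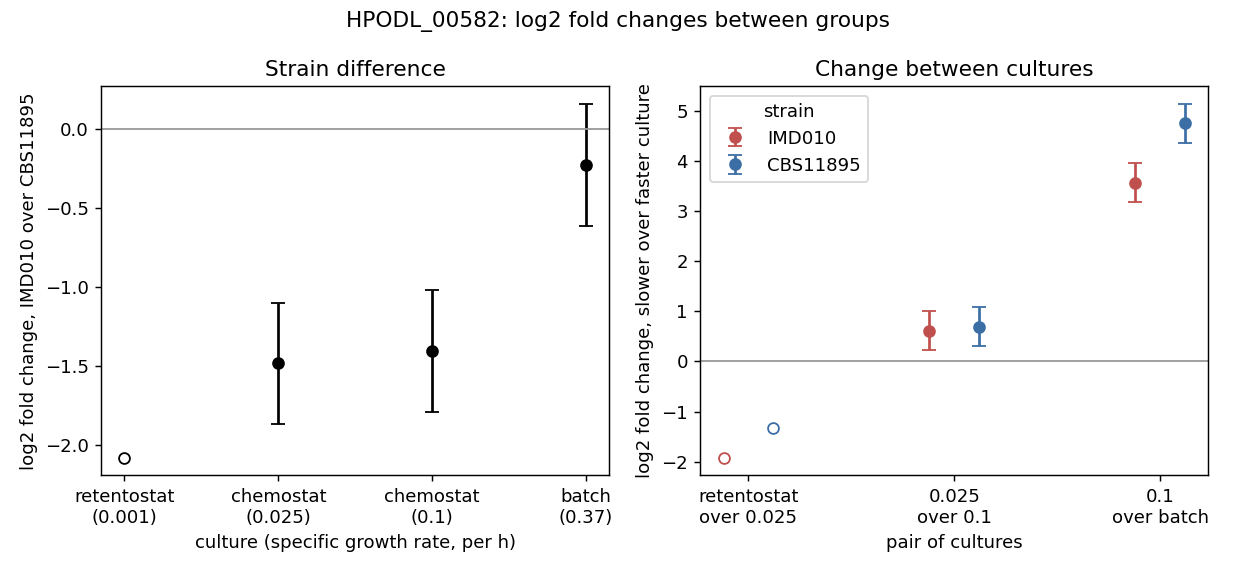
Log2 fold changes of HPODL_00582, for IMD010 over CBS11895 in each culture condition (left) and for the slower over the faster of 2 culture conditions in each strain (right), with specific growth rates per h. Filled points are values with a test and their 95% confidence interval, and open points, all from retentostat samples, are values without a test. The strain difference is −1.48 at 0.025 per h and −1.40 at 0.1 per h, and the interval in batch includes 0.

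Whether the strain difference depended on the condition was asked with interaction contrasts. The strain difference at 0.1 per h minus that in batch was −1.18 on the log2 scale (−1.72 to −0.63, FDR = 0.00167), when 76.5% of the genes were called. The strain difference at 0.025 per h minus that in batch was −1.26 (−1.80 to −0.71, FDR = 0.00276), when 60.3% were called. In other terms, the increase between batch and chemostat cultures at 0.1 per h was 2.26 times smaller in IMD010 than in CBS11895. A more negative interaction was found for 1228 of the 5233 genes at 0.1 per h against batch and for 887 at 0.025 per h against batch. The median gene had interactions of 0.27 and 0.22 for these 2 contrasts, of the opposite sign. Without TMM factors, which moved these medians to −0.18 and −0.04, HPODL_00582 differed from the median gene by −1.46 and −1.48 on the log2 scale, and with TMM factors by −1.45 and −1.47. The strain differences at the 2 dilution rates differed by −0.08 (−0.62 to 0.47, FDR = 0.855), an interval that leaves room for a change in either direction. For this contrast 0% of the 5233 genes were called by limma on FPKM values or with voom weights on the recovered reads, and 299 genes were under 0.05 by the unadjusted p-value.

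In retentostat cultures, the condition that brought the gene to attention, the level was 4.22-fold lower in IMD010 than in CBS11895, a log2 fold change of −2.08, while 3.59% of all genes were called at an FDR under 0.05 and 4 had a larger decrease. The strain difference minus that at 0.025 per h was −0.60 on the log2 scale. Compared with chemostat cultures at 0.025 per h, the rate at which retentostats are started, retentostat cultures had a 3.77-fold lower level in IMD010, with 69 genes showing a larger decrease and 28% of all genes called, and a 2.49-fold lower level in CBS11895, with 93 genes showing a larger decrease and 17.9% called. In both strains the retentostat level was nevertheless above that in batch, at means of 2687 in IMD010 and 11366 in CBS11895. By the labels, the retentostat cultures received more vitamins, among which is pantothenate, the precursor of coenzyme A, more trace elements and less glucose than the sequenced chemostat cultures at 0.025 per h, and ammonia in place of potassium hydroxide for pH control. In the comparison of these groups, medium, culture mode and growth rate cannot be told apart. Since the level peaked at the middle of the 3 glucose-limited growth rates, a line described it poorly. The slope of the mean-normalized level on growth rate had an R2 of 0.0692 in IMD010 and 0.0053 in CBS11895 (n = 6 each).

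The genes whose pattern was most like that of HPODL_00582 were ranked by Pearson's r of log2 values over the 16 samples, which share libraries and large condition effects. Among the 5232 other genes the median r was 0.03, 45 genes were above 0.9 and 21 were below −0.9. The first was HPODL_02721 (r = 0.972), followed by HPODL_02606 (0.961), HPODL_02607 (0.957), HPODL_02720 (0.951) and HPODL_01388 (0.950), which the gene table names as 4-hydroxyphenylpyruvate dioxygenase, an enzyme of tyrosine breakdown. The table as used here gives no names for the other 4 genes. HPODL_02606 (chromosome VII, 389518 to 391266) and HPODL_02607 (392605 to 394299) lie next to each other, 1338 bases apart, and HPODL_02720 (chromosome VII, 621766 to 622410) and HPODL_02721 (622547 to 623401) are 136 bases apart, which was noticed after the ranking was made. HPODL_02721 rests on few reads (14 to 309 per sample), the other 4 on 74 to 53063. It passed the filter on low values only through CBS11895 at 0.025 and 0.1 per h (means of 11.1 and 12.75). These are also the groups in which HPODL_00582 was highest, so that its place in the ranking depends on the filter. In batch its means were 0.63 in IMD010 and 1.67 in CBS11895, near the 1 added before the log2. The order depended on the measure, since 3 of the 5 genes were among the first 5 without TMM factors and 2 with Spearman's rho.

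Since these genes were chosen over the same 16 samples, their values are given as a description without a test. In all 5, the mean level at 0.1 per h was above that in batch in both strains, with log2 fold changes of 0.86 (HPODL_01388) to 7.68 (HPODL_02606) in IMD010 and of 2.05 (HPODL_01388) to 7.03 (HPODL_02606) in CBS11895. The fold change of HPODL_02606 was larger than that of HPODL_00582 itself, with a mean level of 2994 TMM-normalized FPKM at 0.1 per h against 13.4 in batch in IMD010 and of 6142 against 47.4 in CBS11895. Between the strains, its log2 fold change of IMD010 against CBS11895 was −1.47 at 0.025 per h, −1.06 at 0.1 per h and −1.70 in batch cultures, where that of HPODL_00582 was −0.23. For the other 4 genes it was −0.79 (HPODL_02720) to −0.38 (HPODL_02721) at 0.025 per h and −1.05 (HPODL_02720) to −0.59 (HPODL_02607) at 0.1 per h. The most opposite patterns were those of HPODL_04536 (r = −0.936) and HPODL_03311 (r = −0.935), whose levels were lowest at 0.025 per h and highest in batch in both strains, at 8.47 and 27.3 in IMD010 and 5.98 and 30.3 in CBS11895 for HPODL_04536.

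**Figure D3:**
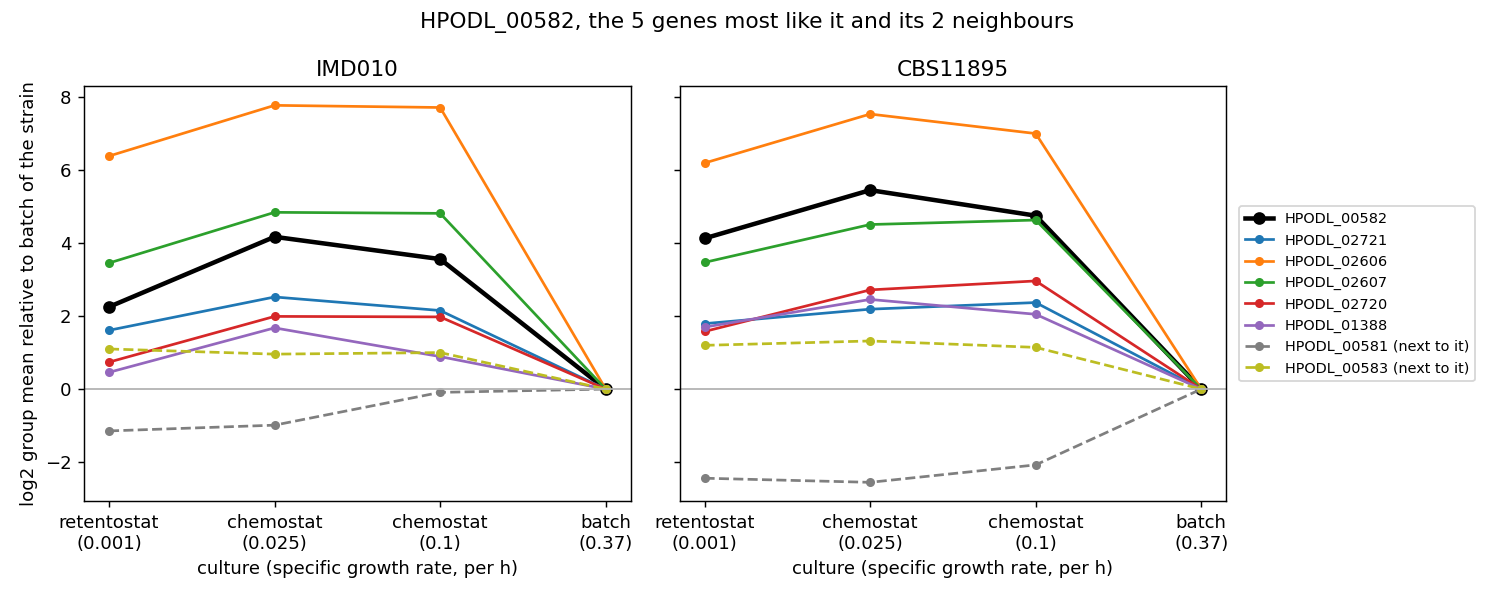
Log2 of the group mean of TMM-normalized FPKM relative to the batch cultures of the same strain, in order of specific growth rate (per h), for HPODL_00582 (black), the 5 genes with the highest Pearson's r to it (solid) and the gene on each side of it on the chromosome (dashed). HPODL_02606 changes most, and HPODL_00581, 17 bases away, runs in the opposite direction in CBS11895, with a log2 fold change of −2.07 at 0.1 per h over batch.

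The genes on both sides of HPODL_00582 on the chromosome had patterns unlike each other. HPODL_00581 (737629 to 739566), mitochondrial glycerol-3-phosphate dehydrogenase, an enzyme of the shuttle that feeds electrons of cytosolic NADH into the respiratory chain, ends 17 bases before it. Its mean FPKM in IMD010 was 1509 ± 735 at 0.1 per h and 1605 ± 12.35 in batch (log2 fold change −0.18, FDR = 0.549). In CBS11895 it was 880 ± 19.0 and 3706 ± 193 (−2.07, FDR = 2.23e-05). The r of HPODL_00581 with HPODL_00582 was −0.751. HPODL_00583 (741029 to 742513), a hypothetical protein 236 bases to the other side, was higher at 0.1 per h than in batch by 1.00 in IMD010 (FDR = 1.28e-05) and by 1.14 in CBS11895 (FDR = 2.60e-06), with an r of 0.852. Neither was called between the strains at 0.025 or 0.1 per h. Of the 10 nearest genes, 5 on each side, 0 were called between the strains at 0.025 per h or at 0.1 per h by limma or with voom weights, with 1 and 4 at an unadjusted p-value under 0.05, in comparisons in which 1.49% and 3.38% of all genes were called. In the comparison of 0.1 per h with batch, 4 of the 10 were called in IMD010, all of them higher, and 4 were higher and 3 lower in CBS11895, which is near the share of all genes called. HPODL_00583 and HPODL_05162 rose in both strains. The other calls, named after their values were seen, were HPODL_05161 and HPODL_00584 (higher in IMD010), HPODL_00578 and HPODL_00579 (higher in CBS11895), and HPODL_00580, HPODL_00581 and HPODL_00586 (lower in CBS11895). The annotation used here gives no strand, so that reads of HPODL_00582 that run into HPODL_00581 could not be assessed.

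Genes of related functions were taken from the same gene table, which was at hand for 1999 named genes only, so that the lists are incomplete. Words in the names gave 27 genes in 7 lists, all of which passed the filter. At 0.1 per h over batch, 18 of the 27 rose and 3 fell in IMD010 (median log2 fold change 1.35, against −0.0032 over all genes), and 14 rose and 6 fell in CBS11895 (0.70, against −0.04), where 27.7% of all genes rose and 24% fell in IMD010 and 36.1% rose and 37.9% fell in CBS11895. All 27 had a smaller estimated increase than HPODL_00582 in both strains. In IMD010 the margin over the nearest, HPODL_01480 (3.47, SE 0.24, against 3.57, SE 0.17), was smaller than either standard error.

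Both listed genes of peroxisomal beta-oxidation rose at 0.1 per h over batch. Acyl-coenzyme A oxidase (HPODL_01143), which catalyses the first step, rose by 2.85 on the log2 scale in IMD010 and by 2.06 in CBS11895, and the multifunctional enzyme (HPODL_00315), which carries out the following hydration and oxidation, by 2.19 in IMD010 and 1.23 in CBS11895. Dihydroxyacetone kinase (HPODL_01039), the only listed gene of methanol use, rose by 1.86 in IMD010 and 1.24 in CBS11895. Among 5 other peroxisomal proteins, which include HPODL_00315, 4 rose and 1 fell in IMD010, and 3 rose and 1 fell in CBS11895. Over all genes, 27.7% rose and 24% fell in IMD010, and 36.1% rose and 37.9% fell in CBS11895. The membrane protein PMP47B (HPODL_00941) rose by 2.92 in IMD010 and 2.37 in CBS11895, and a subunit of the ABC transporter of fatty acids (HPODL_00217) by 0.96 in IMD010 and 1.74 in CBS11895. The other subunit (HPODL_01261) rose by 1.35 in IMD010 and had 0.17 in CBS11895 (FDR = 0.359). The peroxisomal primary amine oxidase (HPODL_01791), used for growth on amines as nitrogen source, fell by 1.59 in IMD010 and by 3.40 in CBS11895.

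Peroxins build peroxisomes and import their proteins. Of 9 listed, 6 were called in IMD010, all of which rose (median of the 9, 0.85), when 27.7% of all genes rose and 24% fell. In this strain PEX22 (HPODL_01386) had −0.34 (FDR = 0.367), PEX11C (HPODL_00505) 0.10 (FDR = 0.764) and PEX19 (HPODL_01942) 0.15 (FDR = 0.469). In CBS11895, 3 rose and 3 fell (median 0.10), which is near the shares of all genes that rose (36.1%) and fell (37.9%). PEX22 rose by 1.89, PEX19 by 1.08 and PEX5 (HPODL_00015), the import receptor, by 0.70. PEX11C fell by 2.16, PEX10 (HPODL_00444), a ubiquitin ligase of the import machinery, fell by 0.79 and PEX6 (HPODL_01223) fell by 0.39. PEX5 and PEX6 were named after their values were seen, because the counts are small. Without TMM factors the counts in CBS11895 were 5 higher and 1 lower, when the median over all genes was 0.38, against −0.04 with them. The means of PEX10 changed in opposite directions in the strains. Its FPKM was 50.1 ± 26.1 at 0.1 per h and 14.0 ± 0.53 in batch in IMD010, and 28.5 ± 0.851 and 50.2 ± 6.18 in CBS11895. The 2 IMD010 cultures at 0.1 per h thus differed widely.

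All 5 listed genes of the glyoxylate and methylcitrate cycles and the carnitine shuttle, which serve the use of acetyl and propionyl units, rose in both strains. Of all genes, 27.7% rose in IMD010 and 36.1% in CBS11895. Isocitrate lyase (HPODL_00142), the entry to the glyoxylate cycle, rose by 3.20 in IMD010 and 2.24 in CBS11895, and malate synthase (HPODL_01838), the other enzyme particular to it, by 2.29 in IMD010 and 1.38 in CBS11895. The carnitine acetyltransferase HPODL_01480 rose by 3.47 in IMD010 and 1.78 in CBS11895, and methylisocitrate lyase (HPODL_01752) by 2.34 in IMD010 and 0.94 in CBS11895.

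**Figure D4:**
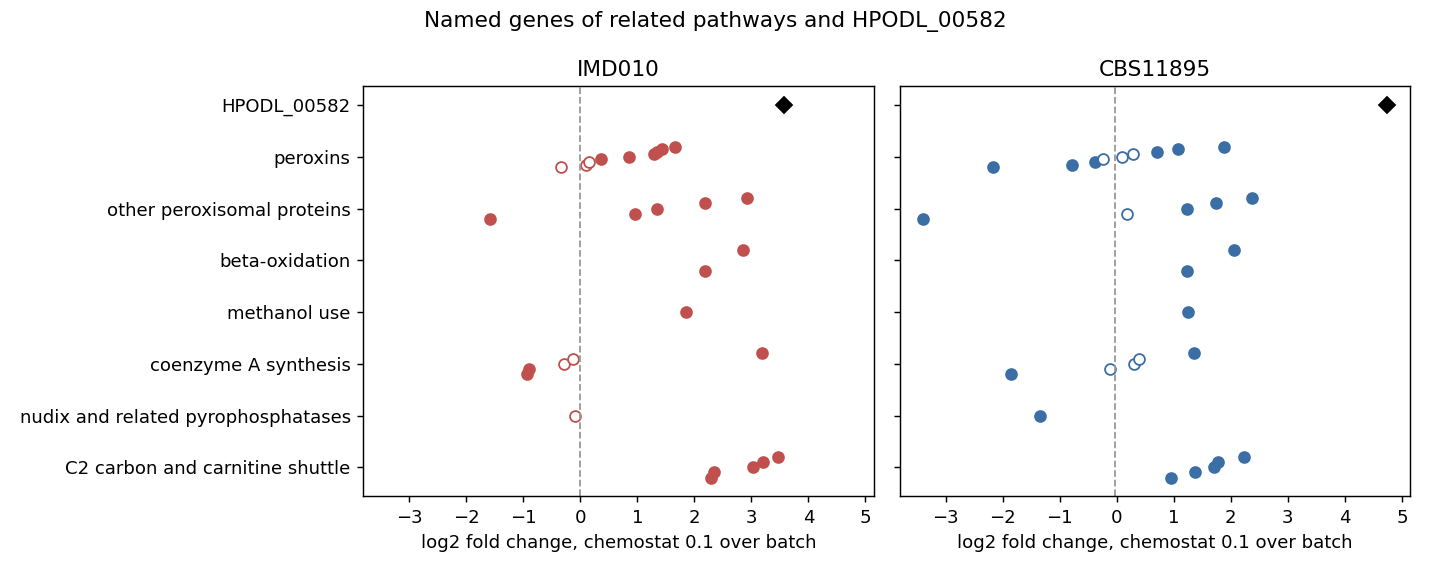
Log2 fold changes of chemostat cultures at 0.1 per h over batch cultures for HPODL_00582 (diamond) and for the named genes of 7 related lists, in IMD010 (left) and CBS11895 (right). Filled circles passed an FDR of 0.05, open circles did not, and the dashed line is the median of all genes tested. HPODL_00582, at 3.57 in IMD010 and 4.74 in CBS11895, is to the right of all 27 genes in both panels. In IMD010 its margin over the nearest gene, HPODL_01480 (3.47), is smaller than its standard error of 0.17.

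Coenzyme A, the substrate after which HPODL_00582 is named, is made from pantothenate. Of 5 listed genes of pantothenate uptake and synthesis, 1 rose and 2 fell in IMD010 at 0.1 per h over batch, and 1 rose and 1 fell in CBS11895. Over all genes, 27.7% rose and 24% fell in IMD010, and 36.1% rose and 37.9% fell in CBS11895. The pantothenate transporter liz1 (HPODL_01033) rose by 3.18 in IMD010 and by 1.36 in CBS11895. In the order of growth rates its mean FPKM was 107, 54.0, 29.9 and 2.28 in IMD010 and 204, 66.8, 20.9 and 8.13 in CBS11895, so that it was highest in the retentostat and not at 0.025 per h. Another putative pantothenate transporter (HPODL_01743) had −0.29 in IMD010 (FDR = 0.307) and fell by 1.85 in CBS11895. Of 2 ketopantoate reductases, which act in pantothenate synthesis, HPODL_01461 fell by 0.90 and HPODL_01813 fell by 0.94 in IMD010, while they had 0.39 (FDR = 0.186) and 0.31 (FDR = 0.203) in CBS11895. Ketopantoate hydroxymethyltransferase (HPODL_01161) had −0.13 in IMD010 (FDR = 0.321) and −0.12 in CBS11895 (FDR = 0.333). Without TMM factors, 4 of the 5 genes were higher at 0.1 per h than in batch in CBS11895. The median over all genes was then 0.38, against −0.04 with TMM factors, so that this count moved with the scaling of all genes. The only other listed nudix hydrolase (HPODL_01268) had −0.09 in IMD010 (FDR = 0.515) and fell by 1.34 in CBS11895, opposite to HPODL_00582.

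The related genes were also compared between the strains, where their counts of calls in chemostat cultures were near the background. At 0.025 per h, 0 of the 27 were called by limma or with voom weights, with 4 at an unadjusted p-value under 0.05 and log2 fold changes of −0.56 to 0.56, against −1.48 for HPODL_00582, when 1.49% of all genes were called. At 0.1 per h 1 was higher, the peroxin PEX29 (HPODL_00080, 0.83, FDR = 0.0166, named after its value was seen). Its mean FPKM was 847 ± 224 in IMD010 and 468 ± 3.72 in CBS11895. No other of the 27 was called, when 2.5% of all genes were higher and 0.879% lower. The range of the 27 was −0.81 to 0.83, against −1.40 for HPODL_00582. In batch cultures, where HPODL_00582 was not called, 3 were higher and 17 lower in IMD010, when 30.6% of all genes were higher and 42.9% lower. In the retentostat, described without a test, 13 of the 27 were above 0 and 14 below, with log2 fold changes of −0.94 to 2.22 (median −0.02), against −2.08 for HPODL_00582. The 3 beyond 1 in size, named after their values were seen, were isocitrate lyase (mean FPKM of 3818 in IMD010 and 817 in CBS11895), malate synthase (3802 and 1680) and the carnitine acetyltransferase HPODL_01480 (8531 and 3954), all at a higher level in IMD010. The other 2 genes of their list, methylisocitrate lyase (HPODL_01752, 0.03) and the carnitine acetyltransferase HPODL_00251 (−0.13, also named after its value was seen), were near 0, and the lowest value was that of liz1 (107 and 204).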

How the data were processed

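Messenger RNA was sequenced in 2 independent cultures of each of 2 strains under each of 4 conditions, grouped by the labels. Per the labels and methods, the authors aligned reads with STAR 2.5.3a, removed ambiguous reads and counted with HTSeq, and deposited FPKM values, 1 per gene and sample. The kit in the labels and the strand-specific library of the methods differ, and the strand setting of HTSeq is not given in the sources used here. The deposited FPKM values came out as whole numbers of reads for 100% of the values above 0 (tolerance 0.05 reads), and their divisor (74 for HPODL_00582) was not the annotated length (1209 bp), so that levels of different genes were compared only as reads per annotated kilobase.

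From the recovered reads, TMM factors were calculated (trims of 30% and 5%) in R 4.3.3. Genes with a mean of at least 10 in 1 or more groups (5233) were tested with limma 3.58.1 on log2 values after TMM scaling and addition of 1, with all 16 samples and 8 groups in 1 fit and Benjamini-Hochberg adjustment over genes (FDR, called under 0.05). The pseudocount understates changes of low genes. An exact permutation test of 2 against 2 cultures cannot go below a two-sided p of 0.333 and was not used. The fit shares its spread over groups, and the precision is set by 2 cultures per group, not by reads.

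Named were HPODL_00582, all listed genes of coenzyme A synthesis and nudix hydrolases, the 2 highest and 2 lowest of each other list by log2 fold change of 0.1 per h over batch in CBS11895, the nearest gene on each side, the 5 most and 2 least alike genes, and NUBM. The gene, lists and tests were chosen with earlier results of these data known. Alternatives were no TMM factors, median-of-ratios factors, no filter, pseudocounts of 0.1 and 10, a fit restricted to the samples compared, the replicate number as a factor, removal of a trend on gene length (local regression, span 0.3), both together, voom weights, and omission of each culture. Protein and gene sequences were not used here.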

Additional observations from a re-analysis of the deposited data

Results flagged for a closer look

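The strain difference of HPODL_00582 depended on the culture condition by a test of the difference itself. The log2 fold change of IMD010 over CBS11895 at 0.1 per h minus that in batch was −1.18 (standard error 0.25, interaction contrast in limma, FDR = 0.00167), and that at 0.025 per h minus that in batch was −1.26 (standard error 0.25, FDR = 0.00276). Both contrasts use the same 4 batch samples, so that they are not independent of each other. In batch cultures the strain difference over all genes varied with gene length, and with a smooth trend on length removed from each sample the values were −1.32 (FDR = 0.00106) and −1.34 (FDR = 0.00323). In both contrasts most genes were called, 76.5% and 60.3%, with 32.5% and 25.4% in the direction of HPODL_00582. A more negative interaction was found for 1228 and 887 of the 5233 genes, so that its size was not unusual among genes of all lengths. This ranking includes the genes of up to 600 bp, whose median interactions were −1.29 and −1.19. For genes of 1000 to 1400 bp the medians were 0.37 and 0.26, from which HPODL_00582 differed by −1.55 and −1.52.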

How the results depend on the processing

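Each of 13 values of HPODL_00582 was recomputed under 26 alternatives. Direction and call were the same under all 26 for the strain difference at 0.025 per h (FDR up to 0.0254), for 0.1 per h over batch in IMD010 (3.32 to 3.81) and in CBS11895 (4.70 to 5.17), and for the interactions of 0.1 per h (−1.64 to −0.93) and 0.025 per h (−1.51 to −1.01) with batch. In fits restricted to the samples compared, the strain difference at 0.1 per h (−1.40, FDR = 0.577) and 0.025 over 0.1 per h in IMD010 (0.62, FDR = 0.284) were not called. Without TMM factors, the strain difference in batch was 0.12, the difference of the strain differences at the 2 dilution rates was 0.12, and the retentostat over 0.025 per h in IMD010 was −2.12. These 3 moves are of the size of the shift of the median gene. Leaving out 1 culture at a time gave −0.47 to 0.018 for the strain difference in batch, 0.45 to 0.78 for 0.025 over 0.1 per h in IMD010, 0.59 to 0.80 in CBS11895, and −0.25 to 0.0894 for the difference of the strain differences, which was positive without the first IMD010 culture at 0.025 per h (0.0085) or at 0.1 per h (0.0894) and without the first CBS11895 culture at 0.025 per h (0.0275). The cause of the lost calls was not tested. Replicate numbers are shared between groups, but same-numbered samples did not consistently deviate together (28 pairs of groups, r of −0.32 to 0.41, median −0.0034, 6 over 0.1). With the replicate number as a block, no call of HPODL_00582 changed (−1.48 at 0.025 per h, FDR = 0.00279, and −1.18 for the interaction at 0.1 per h, FDR = 0.00231). Genes called between the strains at 0.025 per h were 78, and 202 without TMM factors. Peroxins higher at 0.1 per h in CBS11895 were 3, and 5 without TMM factors or with the length trend removed. Of the genes of coenzyme A synthesis 1 was lower there, and 2 with the trend removed. Reads set no limit for HPODL_00582, which had at least 728 in every sample.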

Other observations

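The divisor that turned reads into the deposited FPKM values ran from 1 to 1120 over genes. Its Spearman correlation with annotated length across genes was −0.383, while that with the place of each gene's length when lengths are sorted as text was 0.986. A ranking of genes by the deposited values would therefore not rank them by transcript level. Fold changes of one gene between samples do not involve the divisor, other than through the pseudocount and the filter on low values.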
